A study of Mus musculus with 15 samples.

Results

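The genes described here are 35 components, regulators and receptors of the complement system, taken as the rows of the deposited count table whose symbol is one of the listed members. They make up 35 of the 40481 genes of that table. They were measured by RNA-seq in 15 libraries of mouse RPE/choroid complex, which joins the retinal pigment epithelium (RPE) to the blood vessels and connective tissue of the choroid behind it. The control group held 7 libraries and the INK-ATTAC group held 8.

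Every mouse carried floxed Abca1 and Abcg1, which encode cholesterol exporters, together with LysM-Cre, which acts in myeloid cells, so both groups share that background. AP20187 by intraperitoneal injection (i.p.) is the labelled treatment of all 15 libraries. INK-ATTAC mice carried in addition a transgene in which the INK4a promoter drives an FKBP-caspase 8 fusion, and AP20187 joins the fusion proteins and triggers apoptosis of cells that use that promoter. The series text gives alternate-day injections over 3 months for the INK-ATTAC mice, and its title places the study in mice with subretinal drusenoid deposits. Age, sex and the number of animals behind a library are not stated in the labels, so p-values measure the spread between these libraries, which may be partly technical.

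Complement is a set of plasma and tissue proteins that tag microbes, dying cells and debris. The classical pathway starts when C1q binds a surface and its proteases C1r and C1s cut C4 and C2, the lectin pathway starts from collectins with the MASP proteases, and the alternative pathway amplifies C3 cleavage through factors B and D and properdin. All routes cut C3, whose fragments are read by phagocyte receptors, and then C5, which starts the membrane attack complex of the terminal components, while soluble and membrane-bound regulators limit each step. In the outer eye the RPE and choroid make many of these proteins locally, and complement is a known part of the biology of drusen and macular degeneration.

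The smallest library, control 4, held 39121503 counts and the largest, INK-ATTAC 6, held 65065950. The tissue label was checked against marker genes: the 10 RPE markers summed to between 64966 and 97547 CPM (the read count scaled to a common library size, here with TMM factors), and 8 hepatocyte markers, the cell type that makes most plasma complement, to between 1.02 and 2.07 CPM, with 2 of the 8 tested (Apoa1 at -0.18 and Apoa2 at 0.23 on the log2 scale between groups). Rod photoreceptor markers were present in all libraries and lowest in INK-ATTAC 2, at a mean log2 CPM of 2.64 against 4.33 to 6.47 in the other libraries. That library also had the lowest macrophage level, 6.72, and the highest adipocyte level, 3.01. The libraries fell into a class with low Xist and high Y-linked transcripts (controls 1 to 3 and INK-ATTAC 1 to 4, 7 libraries) and one with the reverse pattern (controls 4 to 7 and INK-ATTAC 5 to 8, 8 libraries). Low-Xist libraries thus carry the lower label numbers in each group, and Xist class cannot be told apart from anything else that follows those numbers.

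Complement transcripts spanned more than 5 orders of magnitude in level. Levels compared between genes are CPM per kilobase of annotated exon, averaged over the 15 libraries. Clu, which encodes clusterin, an extracellular chaperone that keeps the terminal complex out of membranes, was highest at 3067 CPM per kb. C1qb followed at 580, Serping1 at 233 and C1qa at 186, and these 4 were the members over 100 CPM per kb. Another 13 members lay between 10 and 100, led by C1qc at 95.7, Cfp at 52.1 and Cd59a at 44.6. A further 7 lay between 1 and 10, among them C2 at 7.03, Cr1l at 4.66 and C3 at 2.99, and 11 lay under 1, among them C5ar2 at 0.886, Cfi at 0.689, C7 at 0.425 and Cfb at 0.314. The scarcest were Masp1 at 0.0565, Hc at 0.0245 and Masp2 at 0.0179 CPM per kb. Regulators were spread over the whole range, from Clu down to Cd46 at 0.0715 CPM per kb. Clu alone made up 77.6% to 84.3% of the summed member CPM in control libraries and 78.8% to 84.1% in INK-ATTAC libraries. The other 34 members together summed to 2435 ± 228 CPM (SD, n = 7 controls) and 2426 ± 138 CPM (SD, n = 8 INK-ATTAC libraries).

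**Figure D1:**
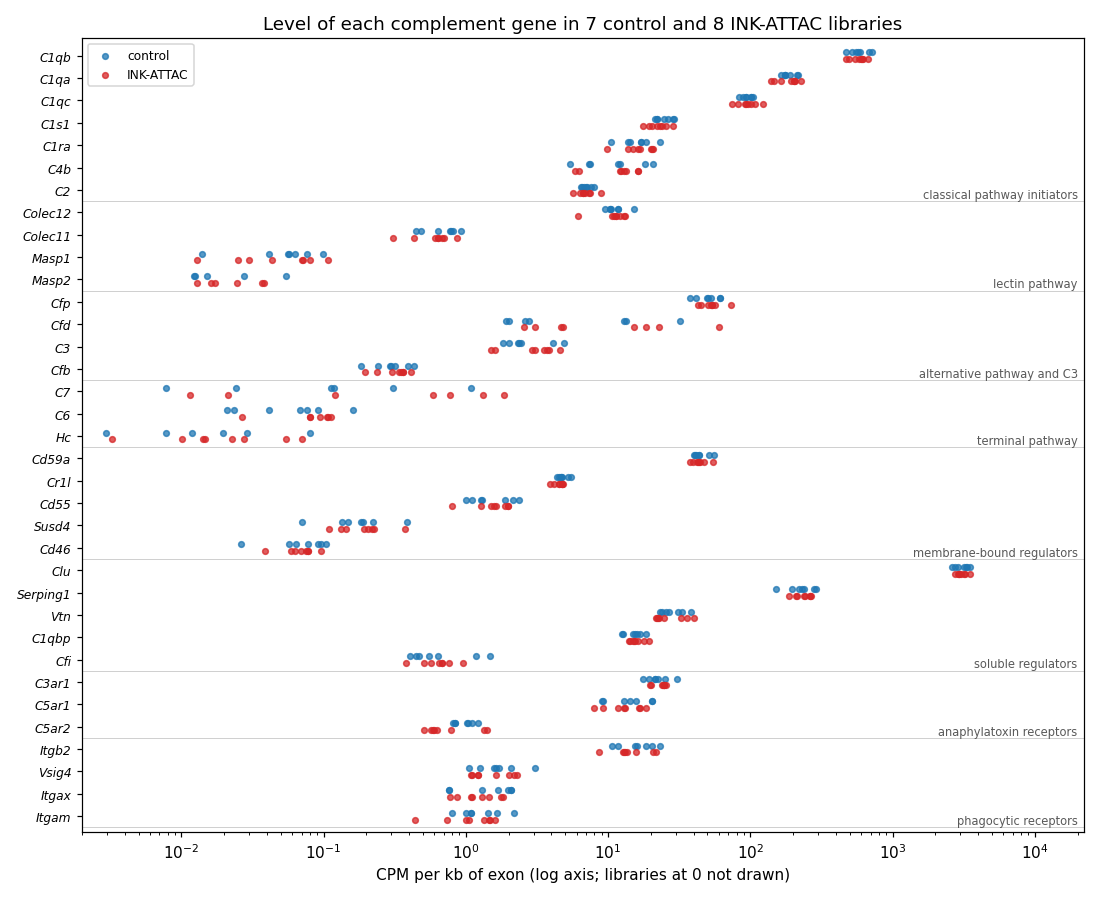
Level of each complement gene in CPM per kb of exon on a log axis, 1 point per library, blue for 7 control and red for 8 INK-ATTAC libraries, grouped by role (libraries at 0 are not drawn). Clu lies near 3067 CPM per kb and Masp2 near 0.0179, and the red and blue points of each gene overlap.

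The main question was whether complement transcript levels differed between libraries of mice with the INK-ATTAC transgene and controls. Removal of cells that use the INK4a promoter was not tested here. No difference passed the test in any of the 33 members that could be tested. Of these, 14 had a higher and 19 a lower estimate in INK-ATTAC libraries, with a median log2 fold change of -0.02, beside -0.00097 over all 17991 genes tested, of which 8953 were higher and 9038 lower. In edgeR's quasi-likelihood test 0 of 33 members had an adjusted p under 0.05 (background 0.0% of genes), and 0 had an unadjusted p under 0.05 (background 4.14%, 745 genes). By DESeq2 6 genes were called (background 0.0334%), by limma-voom 0, or 2 when its libraries were weighted by quality, and 0 members were among them. For 0 members did all libraries of one group lie above all of the other (background 0.0222%). The log2 fold changes quoted below are INK-ATTAC against control, and the adjusted p was 1.00 for each member.

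The precision of these estimates differed between members. For 19 of the 33 the 95% interval of the fold change lay within 1.5-fold in either direction (0.585 on the log2 scale), and for the other 14 it reached beyond. The narrow intervals belonged to abundant and even transcripts, such as Clu (-0.16 to 0.14) and C2 (-0.19 to 0.17). The widest belonged to C7 (-0.94 to 3.55) and Cfd (-0.77 to 2.30), so that a difference of several fold in these 2 genes was not detectable at this spread. Between libraries of the same group the SD of log2 CPM ranged from 0.113 for Cr1l and 0.135 for Clu to 1.62 for Cfd and 2.53 for C7.

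**Figure D2:**
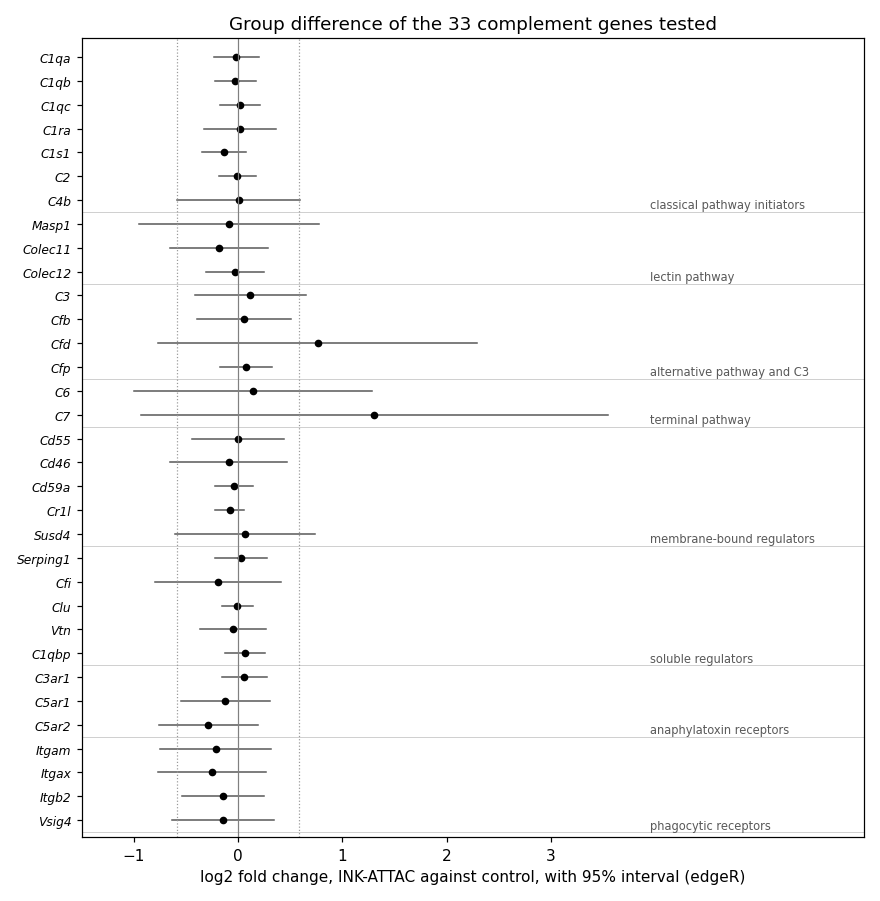
Log2 fold change of INK-ATTAC against control for the 33 complement genes tested (points) with the 95% interval from edgeR (lines), grouped by role. Dotted lines mark 1.5-fold in either direction, every interval crosses 0, and those of C7 and Cfd are the widest.

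Among the 7 classical pathway initiators 3 estimates were higher and 4 lower, with a median of -0.01. C1qa, C1qb and C1qc encode the 3 chains of C1q, the recognition molecule made mainly by macrophages and microglia, and they lie side by side on the minus strand of chromosome 4 (GRCm38), with gaps of 3.6 and 2.9 kb. C1qa was at 172, 184 and 226 CPM in controls (lowest, median, highest) and at 145, 205 and 238 CPM in INK-ATTAC libraries. The INK-ATTAC libraries thus spread around the control range, with 3 below it and 1 above it. C1qa averaged 195 ± 20.8 CPM (SD, n = 7 controls) and 192 ± 32.7 CPM (SD, n = 8 INK-ATTAC libraries), a log2 fold change of -0.02 (SE 0.10). C1qb averaged 637 ± 91.7 and 626 ± 72.8 CPM (log2 fold change -0.03, SE 0.09), and C1qc 184 ± 15.2 and 186 ± 29.2 CPM (0.01, SE 0.09).

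The sequences just upstream of C1qb and C1qc are shown because both genes encode chains of C1q and lie in 1 locus. They come from RefSeq (build GRCm38.p6), in which 25 of the 35 members had an entry, and run 5′ to 3′ on the gene's strand. Each window holds the 250 bases before the RefSeq start, cut short where an annotated exon begins. This cut left 99 bases for C1qc and 221 for Vtn, shown further on. Capitals mark GAGGAA or its reverse complement TTCCTC, the core letters bound by PU.1, a myeloid transcription factor, searched on both strands. The C1qb window lies at chr4:136886201-136886450 and the C1qc window at chr4:136893066-136893164.
C1qb: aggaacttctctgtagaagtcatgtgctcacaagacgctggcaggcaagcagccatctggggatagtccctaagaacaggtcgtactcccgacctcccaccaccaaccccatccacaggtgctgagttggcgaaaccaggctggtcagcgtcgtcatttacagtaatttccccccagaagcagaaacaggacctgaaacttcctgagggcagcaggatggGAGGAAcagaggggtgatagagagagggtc
C1qc: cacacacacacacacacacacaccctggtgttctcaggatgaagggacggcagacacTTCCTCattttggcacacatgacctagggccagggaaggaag
C1qb held 1 match, on its own strand 30 bases before the start, and C1qc held 1 on the opposite strand. Of 32851 promoter windows 23.3% held the motif in 250 bases and 9.91% in the 99 bases that the C1qc window covers, so such a match is common and is a description only.

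C1ra and C1s1 encode the proteases that C1q activates, and C2 and C4b the substrates that form the classical C3 convertase. C1s1 had the lowest unadjusted p of all members. It was at 66.7, 76.9 and 90.3 CPM in controls (lowest, median, highest) and at 54.8, 70.4 and 89.3 CPM in INK-ATTAC libraries. No INK-ATTAC library exceeded the highest control and 3 lay under the lowest. C1s1 had a log2 fold change of -0.14 (SE 0.10), and its interval, -0.35 to 0.07, includes 0.

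C4b varied far more between libraries than its partner C2. It was at 30.9, 66.9 and 118 CPM in controls and at 33.3, 72.0 and 92.6 CPM in INK-ATTAC libraries, with every INK-ATTAC library inside the control range. C4b averaged 67.6 ± 32.8 and 67.8 ± 22.5 CPM in the 2 groups (log2 fold change 0.00, SE 0.28). C2 averaged 27.3 ± 2.08 and 27.1 ± 3.68 CPM (-0.01, SE 0.08) and C1ra 48.8 ± 12.05 and 49.4 ± 11.2 CPM (0.02, SE 0.16). Reads of C4b, C1ra and C1s1 can be shared with the near-identical copies C4a, C1rb and C1s2, and their values are uncertain to that extent. C2 and Cfb are neighbours on chromosome 17 with a gap of 0.1 kb, and exons of both overlap Gm20547 on the same strand, so that their reads can be shared with it. Exons of C1s1 and C2 also overlap genes on the other strand, whose reads cannot be told apart where the strand setting is unknown.

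All 3 lectin pathway members tested had lower estimates (median -0.09), each within its error. Colec12, a membrane collectin and scavenger receptor, averaged 98.8 ± 16.6 CPM (SD, n = 7 controls) and 96.7 ± 18.8 CPM (SD, n = 8 INK-ATTAC libraries; log2 fold change -0.03, SE 0.13). Colec11, a soluble collectin that starts the pathway, averaged 1.13 ± 0.288 and 0.989 ± 0.279 CPM (-0.19, SE 0.22), and Masp1, a protease it carries, 0.572 ± 0.263 and 0.541 ± 0.316 CPM (-0.09, SE 0.41). Masp2, the protease that cuts C4 and C2 in this pathway, had 21 counts in all controls and 26 in all INK-ATTAC libraries, with 4 libraries at 0, and was not tested. A count of 0 allows up to 3 counts, which is 0.0461 to 0.0752 CPM depending on the library, and Masp2 exons overlap Tardbp on the other strand.

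All 4 members of the alternative pathway, counting C3, had higher estimates (median 0.09), none of them past the test. C3, the protein on which all pathways meet, was at 9.32, 12.1 and 25.3 CPM in controls (lowest, median, highest) and at 7.69, 17.0 and 23.5 CPM in INK-ATTAC libraries. The groups overlapped over nearly the whole range, with 2 INK-ATTAC libraries under the lowest control. C3 averaged 14.7 ± 6.04 CPM (SD, n = 7 controls) and 16.0 ± 5.56 CPM (SD, n = 8 INK-ATTAC libraries), a log2 fold change of 0.12 (SE 0.25). Cfb, the protease subunit of the alternative convertase, was at 0.519, 0.841 and 1.22 CPM in controls and at 0.553, 0.967 and 1.16 CPM in INK-ATTAC libraries, all inside the control range (0.05, SE 0.21). Cfp, which encodes properdin, the stabilizer of that convertase, averaged 88.1 ± 15.9 and 92.6 ± 15.8 CPM (0.07, SE 0.12).

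Cfd encodes factor D, also known as adipsin, the protease that activates factor B and a classic product of fat cells. It was at 1.75, 2.55 and 29.5 CPM in controls (lowest, median, highest) and at 2.36, 9.30 and 55.6 CPM in INK-ATTAC libraries. Control 7 and INK-ATTAC 2 stood highest in their groups, and the ranges overlapped. Its log2 fold change was 0.76 (SE 0.73). It was 0.06 without INK-ATTAC 2, 1.46 without control 7 and 0.01 with the rod level as a covariate, and it was 1.40 in libraries of low Xist and -0.43 in those of high Xist. All 5 adipocyte markers tested had higher estimates too, led by Adipoq at 0.60 and Retn at 0.55. The summed adipocyte list ranged from 12.4 to 42.8 CPM in controls and from 13.6 to 48.3 CPM in INK-ATTAC libraries, with none of its 7 genes at 0 in all libraries. Their part in the Cfd estimate was not tested, and in such bulk samples fewer cells of a type and less RNA per cell cannot be told apart.

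The sequence upstream of Cfd, a window at chr10:79890603-79890852 on the plus strand (RefSeq, GRCm38.p6), is shown because this gene and the adipocyte markers had the highest correlation of the pairs tested (values further on). It was searched for TTGCNNAA, letters bound by the C/EBP factors of fat cells, on both strands.
Cfd: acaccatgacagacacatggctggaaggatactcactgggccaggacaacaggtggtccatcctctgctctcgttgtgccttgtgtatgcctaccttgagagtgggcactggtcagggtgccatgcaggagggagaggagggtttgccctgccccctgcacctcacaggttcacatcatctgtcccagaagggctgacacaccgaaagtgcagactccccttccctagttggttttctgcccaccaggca
These letters are not in this window, and 9.56% of promoter windows hold them, so the sequence is in lower case throughout.

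Both terminal components tested had higher estimates (median 0.72), each with a wide interval. C6 and C7 encode successive parts of the membrane attack complex and lie 174 kb apart on chromosome 15. C7 had 143, 1, 44, 12, 14, 0 and 4 counts in controls 1 to 7, and 235, 99, 78, 170, 0, 2, 3 and 18 counts in INK-ATTAC libraries 1 to 8. High counts were seen in INK-ATTAC 1 to 4 and in controls 1 and 3, all of low Xist, while INK-ATTAC 5 to 8 had few. C7 averaged 0.635 ± 1.05 CPM (SD, n = 7 controls) and 1.58 ± 1.87 CPM (SD, n = 8 INK-ATTAC libraries), a log2 fold change of 1.30 (SE 1.07).

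The C7 estimate moved with the libraries and covariates in the fit more than that of any other member. It was 2.60 without control 1 (edgeR adjusted p = 0.999, its unadjusted p being under 0.05), 0.76 without INK-ATTAC 1, 0.52 with Xist class as a covariate, 0.01 with the skeletal muscle level and -0.70 with the lens level. Lens and skeletal muscle markers had higher estimates in INK-ATTAC libraries, 9 of 9 tested in each list, with medians of 3.02 and 0.90. Of these, 7 lens and 4 skeletal muscle markers had an unadjusted edgeR p under 0.05 (background 4.14% of genes), and 0 were called. The markers of a list are not independent of each other. Summed lens markers reached 3957 CPM in INK-ATTAC 3 and 569 CPM in the next INK-ATTAC library. The mean levels of the lists gave p = 0.112 for lens and p = 0.0472 for skeletal muscle in two-sided exact permutation tests between the groups, not adjusted over the lists. The lists were chosen with earlier results of these data known, so no group difference is concluded from these p-values. Crygc at 3.56 and Crygb at 3.69 led the lens list, and Acta1 at 1.17 and Atp2a1 at 0.95 the muscle list. Summed lens markers ranged from 2.55 to 812 CPM in controls and from 4.97 to 3957 CPM in INK-ATTAC libraries, and summed muscle markers from 247 to 2172 and from 585 to 2991 CPM. Their part in the C7 estimate was not tested.

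C6 averaged 0.246 ± 0.172 CPM (SD, n = 7 controls) and 0.270 ± 0.146 CPM (SD, n = 8 INK-ATTAC libraries; log2 fold change 0.14, SE 0.54), with INK-ATTAC 8 at 0. Hc, the mouse gene for C5, had 42 counts in all controls and 68 in all INK-ATTAC libraries and was not tested. Single libraries held up to 20 and 21 of these counts (control 4 and INK-ATTAC 4), and exons of Hc overlap a gene on the other strand.

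Membrane-bound regulators gave 2 higher and 3 lower estimates (median -0.04). Cr1l encodes Crry, the rodent inhibitor of C3 and C4 cleavage on cell surfaces, and it was the most even of all members between libraries of a group. It was at 45.1, 48.3 and 57.0 CPM in controls (lowest, median, highest) and at 40.7, 48.1 and 50.3 CPM in INK-ATTAC libraries. The medians nearly coincided, with 2 INK-ATTAC libraries under the lowest control and none over the highest. For Cr1l the log2 fold change was -0.08 (SE 0.07), with an interval of -0.22 to 0.05.

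Cd59a, which blocks the last step of membrane attack, averaged 81.8 ± 10.7 CPM (SD, n = 7 controls) and 79.7 ± 9.35 CPM (SD, n = 8 INK-ATTAC libraries; log2 fold change -0.04, SE 0.09). Its copy Cd59b can share reads with it. Cd55, which speeds the decay of C3 convertases, averaged 7.68 ± 2.62 and 7.67 ± 1.95 CPM (0.00, SE 0.21). Cd46, a cofactor for the cleavage of C3b and C4b, and Susd4, a membrane protein that limits convertase formation, were both scarce, at 0.0715 and 0.195 CPM per kb. Their log2 fold changes were -0.09 (SE 0.27) and 0.07 (SE 0.32). Exons of Cd46 and Cd55 overlap genes on the other strand.

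Soluble regulators, 2 higher and 3 lower (median -0.01), held the most abundant member. Clu averaged 10574 ± 1109 CPM (SD, n = 7 controls) and 10511 ± 868 CPM (SD, n = 8 INK-ATTAC libraries), a log2 fold change of -0.01 (SE 0.07). Serping1, which encodes the inhibitor of C1r, C1s and the MASP proteases, averaged 535 ± 111 and 546 ± 68.3 CPM (0.03, SE 0.12). C1qbp, a mainly mitochondrial protein that can bind the heads of C1q, averaged 43.1 ± 5.99 and 45.0 ± 5.32 CPM (0.06, SE 0.09). Vtn, which encodes vitronectin, a matrix protein that keeps the terminal complex in solution, averaged 58.4 ± 11.1 and 56.4 ± 14.8 CPM (-0.05, SE 0.15).

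Cfi encodes factor I, the protease that inactivates C3b and C4b. It was at 0.902, 1.22 and 3.30 CPM in controls (lowest, median, highest) and at 0.838, 1.47 and 2.11 CPM in INK-ATTAC libraries. Controls 1 and 7 stood above the other controls, at 2.61 and 3.30 CPM, and also above all INK-ATTAC libraries. The log2 fold change of Cfi was -0.19 (SE 0.29), and without single libraries it ranged from -0.30 to 0.08.

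The 3 anaphylatoxin receptors respond to the small fragments C3a and C5a. C3ar1, the C3a receptor of macrophages and microglia, was at 76.1, 92.6 and 131 CPM in controls (lowest, median, highest) and at 84.4, 106 and 109 CPM in INK-ATTAC libraries, all 8 inside the control range. Its log2 fold change was 0.06 (SE 0.10). C5ar1, the main C5a receptor of phagocytes, was at 23.4, 36.5 and 52.8 CPM in controls and at 20.5, 33.4 and 47.8 CPM in INK-ATTAC libraries, with 1 of the latter under the lowest control (-0.12, SE 0.20).

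C5ar2, the second C5a receptor, lies 2.6 kb from C5ar1 on chromosome 7 and was split within the INK-ATTAC group. It was at 2.90, 3.65 and 4.31 CPM in controls (lowest, median, highest) and at 1.80, 2.18 and 5.05 CPM in INK-ATTAC libraries. INK-ATTAC 1 to 6 all lay under the lowest control, and INK-ATTAC 7 and 8, at 5.05 and 4.76 CPM, both lay over the highest. Across the groups C5ar2 had a log2 fold change of -0.29 (SE 0.23). It was -0.46 without INK-ATTAC 7 (edgeR adjusted p = 0.933) and -0.59 in libraries of low Xist alone (edgeR adjusted p = 0.974), with an unadjusted p under 0.05 in both. In the authors' deposited table, which lists 27 members, C5ar2 had the lowest p of any member, 0.0717 (log2 fold change -0.40, adjusted p 0.785). That table gives 0 of 27 members an unadjusted p under 0.05 (background 6.42%). A small RNA gene overlaps the exons of C5ar2 on the same strand.

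**Figure D3:**
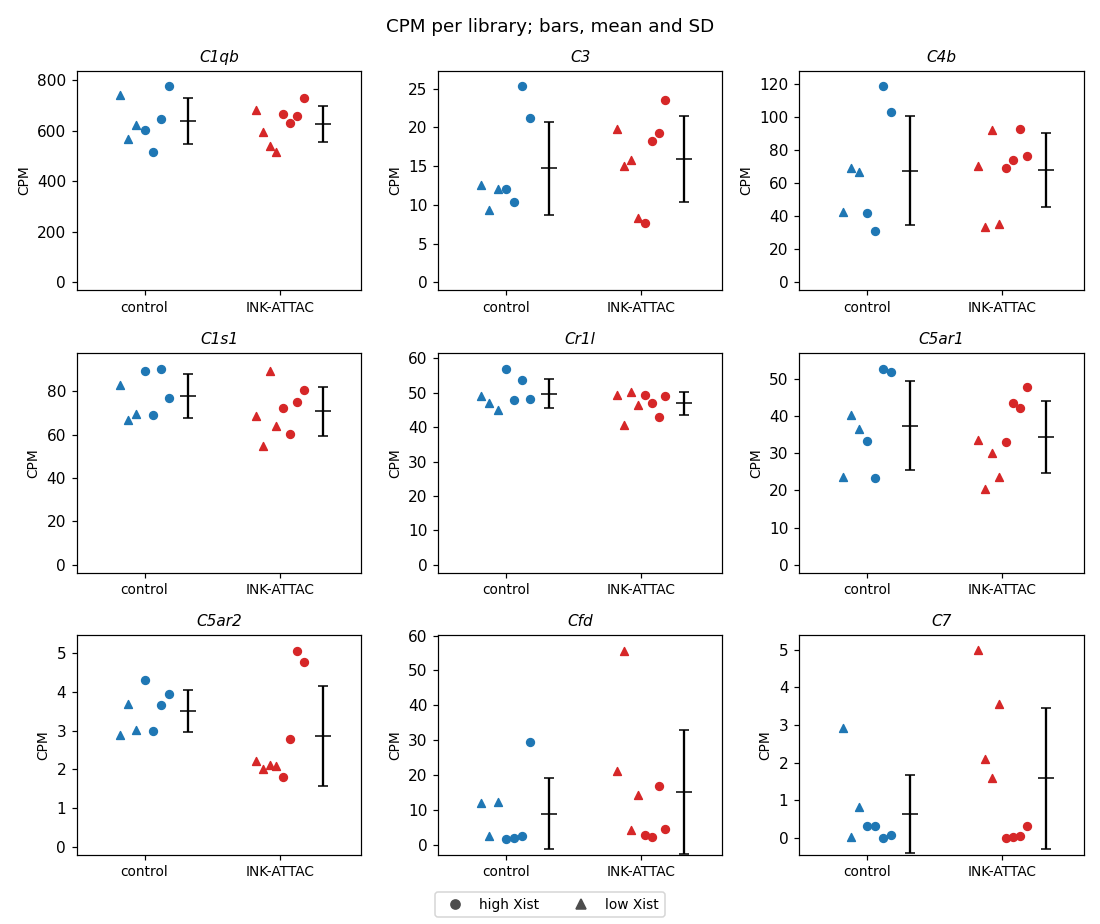
CPM of 9 complement genes in each library (circles, high Xist; triangles, low Xist; blue, 7 controls; red, 8 INK-ATTAC), with the group mean and SD as bars. For C5ar2 the 6 lower INK-ATTAC libraries lie under all controls and the other 2 above them, and for C7 the high values are all triangles.

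All 4 phagocytic receptors had lower estimates (median -0.18), none past the test. Itgam, Itgax and Itgb2 encode the subunits of complement receptors 3 and 4, integrins of myeloid cells that bind the C3 fragment iC3b, and Vsig4 encodes a C3b receptor of resident macrophages. Exons of Itgam overlap Gm49368 on the same strand. Itgam was at 4.01, 5.50 and 11.0 CPM in controls (lowest, median, highest) and at 2.21, 5.99 and 8.07 CPM in INK-ATTAC libraries. The INK-ATTAC median was the higher of the 2 while its mean was the lower, and 2 INK-ATTAC libraries lay under the lowest control. The log2 fold change of Itgam was -0.21 (SE 0.25), and it was -0.05 without control 7 and 0.14 with the macrophage level as a covariate.

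Itgb2 averaged 50.5 ± 13.6 CPM (SD, n = 7 controls) and 45.6 ± 13.4 CPM (SD, n = 8 INK-ATTAC libraries; log2 fold change -0.15, SE 0.19). Itgax averaged 7.29 ± 2.79 and 6.12 ± 1.89 CPM (-0.25, SE 0.25) and Vsig4 2.62 ± 0.975 and 2.36 ± 0.747 CPM (-0.15, SE 0.23). Of the 12 macrophage markers 12 had lower estimates, led by Mpeg1 at -0.30 and Adgre1 at -0.20, and their mean level was 7.06 ± 0.155 log2 CPM (SD, n = 7 controls) and 6.95 ± 0.145 (SD, n = 8 INK-ATTAC libraries; two-sided exact permutation test, p = 0.162). Of the 9 neutrophil markers tested 9 had lower estimates, led by Mmp8 at -0.54 and Csf3r at -0.34. The mean neutrophil level gave p = 0.162 in the same permutation test. In each of these 2 lists 1 marker, Mpeg1 and Mmp8, had an unadjusted edgeR p under 0.05 (background 4.14% of genes), and 0 were called. The markers of a list are not independent of each other, so the counts by direction are a description only. Summed macrophage markers ranged from 3202 to 4213 CPM in controls and from 2904 to 4131 CPM in INK-ATTAC libraries, summed neutrophil markers from 18.3 to 29.0 and from 16.3 to 23.4 CPM, and no gene of either list was at 0 in all libraries. Their part in the receptor estimates was not tested.

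Of 30 further complement genes listed beside the members, such as other components, receptors and copies, 29 were in the count table and 16 were tested. Of these, 11 had higher and 5 lower estimates (median 0.03), and 0 of the 16 were called in edgeR. Ptx3, a pattern recognition protein that binds C1q, had the lowest p, at 0.275 ± 0.122 CPM (SD, n = 7 controls) and 0.557 ± 0.304 CPM (SD, n = 8 INK-ATTAC libraries; log2 fold change 1.03, SE 0.40, edgeR adjusted p = 1.00, its unadjusted p being under 0.05). Cpn1, a subunit of the carboxypeptidase that inactivates anaphylatoxins, followed with 1.94 ± 0.565 and 2.52 ± 0.524 CPM (0.38, SE 0.19). Of 16 interferon-stimulated genes, a set that often varies together with complement genes, 12 had higher and 4 lower estimates (median 0.12, 0 called), led by Irf7 at 0.40 and Ifit1 at 0.47.

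Whether the group difference of a member depended on Xist class was tested with an interaction term. No member passed: 0 of 33 had an adjusted p under 0.05 (background 0.0%) and 0 an unadjusted p under 0.05 (background 4.77%) in edgeR, and the lowest adjusted p of a member was 0.876. With 3 or 4 libraries in each combination the interaction of Cfd was estimated at 1.84 (SE 1.41) and that of C7 at 1.92 (SE 1.57), in low minus high Xist.

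More members had a low unadjusted p between the Xist classes than between the groups. This comparison, low against high Xist with group as a covariate, was chosen after the C7 counts had been seen. Of 33 members 7 had an unadjusted edgeR p under 0.05 (background 10.3% of genes), 2 of them higher in low-Xist libraries (background 5.25%) and 5 lower (background 5.09%), and 0 had an adjusted p under 0.05 (background 0.178%, 32 genes). With 7 of 33 members against a background of 10.3%, no test of the list was made. Among control libraries alone the count was 2 (background 5.15%), and among INK-ATTAC libraries alone it was 9 (background 10.7%).

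C7 showed the largest difference between the classes. Its 770 counts in the 7 low-Xist libraries compare with 53 in the 8 high-Xist libraries. In CPM it was at 0.0208, 2.08 and 4.98 (lowest, median, highest) in low-Xist and at 0, 0.0611 and 0.322 in high-Xist libraries. Of the low-Xist libraries 6 of 7 lay above all high-Xist libraries, control 2 with 1 count being the exception. Low against high Xist, C7 had a log2 fold change of 3.96 (SE 0.82, edgeR adjusted p = 0.0717). The adjusted p was 0.0103 without control 2, 0.0484 without control 5 and up to 0.292 when other libraries were left out, and it was 0.245 in limma-voom. The log2 fold change was 2.93 among controls alone and 4.84 among INK-ATTAC libraries alone. Lens markers had a median level of 2.96 log2 CPM in low-Xist and -0.80 in high-Xist libraries, and skeletal muscle markers of 7.13 and 6.26, and their part in the C7 difference was not tested.

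The other 6 members differed less between the classes and had an edgeR adjusted p above 0.28 in the fit of all 15 libraries. When single libraries were left out, their lowest edgeR adjusted p was 0.134, for C5ar1 without control 5. Clu was at 10055, 11318 and 12120 CPM (lowest, median, highest) in low-Xist libraries and at 9002, 9910 and 10933 CPM in high-Xist libraries, with 5 of the 7 low-Xist libraries above all others (log2 fold change 0.17, SE 0.06, edgeR adjusted p = 0.287). C1qa was at 145, 181 and 200 CPM in low-Xist and at 172, 212 and 238 CPM in high-Xist libraries (-0.25, SE 0.09, adjusted p = 0.333). C5ar1 was at -0.46 (SE 0.18), C5ar2 at -0.51 (SE 0.20), C1ra at -0.33 (SE 0.15) and Cfp, an X-linked gene, at -0.25 (SE 0.11). Vsig4, an X-linked member that is not among these 6, was at 0.18 (SE 0.24). RPE markers had a median level of 10.8 log2 CPM in low-Xist and 10.6 in high-Xist libraries, and fibroblast markers of 7.23 and 7.57. Their part in these differences was not tested.

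**Figure D4:**
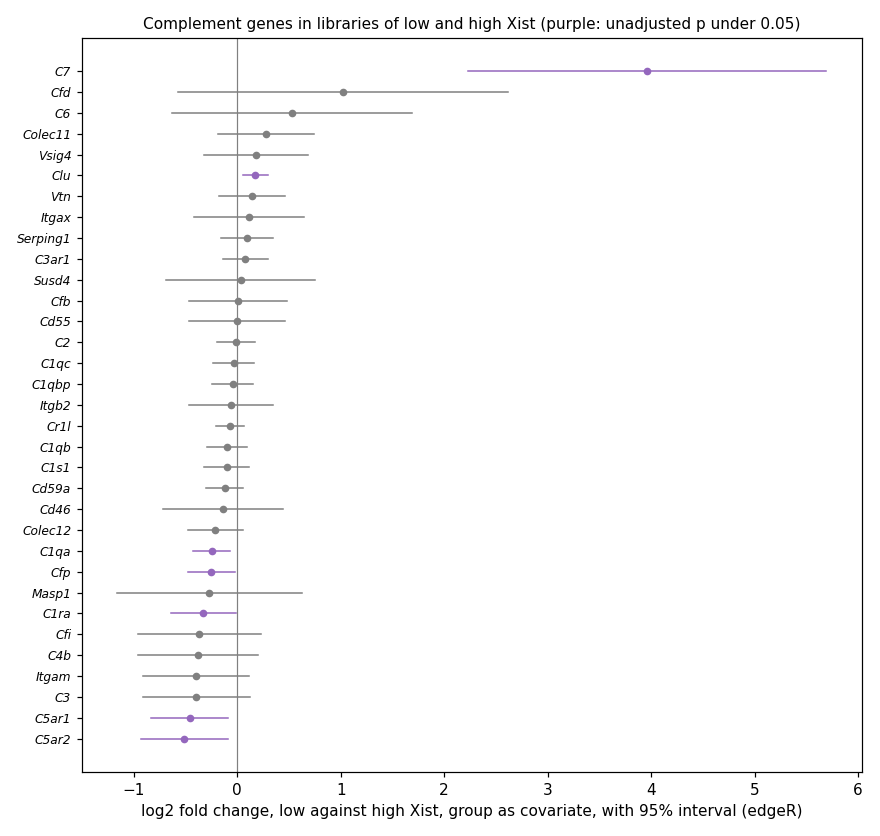
Log2 fold change of low-Xist against high-Xist libraries for the 33 complement genes tested, with group as a covariate (points) and the 95% interval from edgeR (lines). The 7 members in purple have an unadjusted p under 0.05, and C7 stands at 3.96.

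How members moved with markers of the cells that make them was described by correlation across the 15 libraries, in 38 pairs written from textbook knowledge. The level of a list is the mean log2 CPM of its genes, none of which is a member, and all points share library, depth and tissue makeup. Of the 38 pairs 13 had a Benjamini-Hochberg adjusted p under 0.05 for Pearson's r and 10 for Spearman's rho, by two-sided permutation tests with 100000 resamples. The closest pair was Cfd with adipocyte markers, with r = 0.978 (p = 1e-05, the smallest these permutations can give, adjusted p = 0.00038) and rho = 0.961 (p = 1e-05). Without the 2 libraries farthest from the median, control 7 and INK-ATTAC 2, r was 0.972, and it was 0.986 in libraries of high and 0.983 in those of low Xist.

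Vtn followed the rod markers, which label photoreceptors of the adjoining retina. Pearson's r was 0.814 (p = 3e-05, adjusted p = 0.00057) and rho was 0.918 (p = 1e-05). Without control 3 and INK-ATTAC 2, the farthest libraries, r was 0.964, and it was 0.949 within high and 0.819 within low Xist. With RPE markers Vtn had r = -0.242 (p = 0.391, adjusted p = 0.549; rho = -0.214, p = 0.442).
The window upstream of Vtn, chr11:78498870-78499090 on the plus strand (RefSeq, GRCm38.p6), is shown for that reason and was searched on both strands for TAATCC, letters bound by the photoreceptor factor CRX.
Vtn: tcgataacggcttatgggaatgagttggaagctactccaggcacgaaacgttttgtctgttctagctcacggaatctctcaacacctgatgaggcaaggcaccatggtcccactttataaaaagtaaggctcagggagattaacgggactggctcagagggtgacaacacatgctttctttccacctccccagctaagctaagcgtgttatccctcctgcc
These letters are not in this window, and 5.66% of all promoter windows of that length hold them.

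Clu followed the RPE markers, with r = 0.787 (p = 0.0004, adjusted p = 0.00253) and rho = 0.707 (p = 0.00421). Without control 1 and INK-ATTAC 2 it was 0.633. Within low-Xist libraries r was 0.863 and within high-Xist libraries 0.317, so that the relation was weak in the class with the narrower range of RPE level. With rod markers Clu had r = -0.260 (p = 0.358, adjusted p = 0.544; rho = -0.107, p = 0.703).

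Among the macrophage pairs the integrin genes were the closest. Itgam had r = 0.818 (p = 0.00014, adjusted p = 0.00133; rho = 0.743, p = 0.00221) and Itgb2 r = 0.815 (p = 0.00035, adjusted p = 0.00253; rho = 0.729, p = 0.00304) with the macrophage level. Without INK-ATTAC 2 and INK-ATTAC 4 these were 0.675 and 0.761. Within high and low Xist they were 0.770 and 0.866 for Itgam and 0.935 and 0.701 for Itgb2. C1qb had r = 0.711 (p = 0.00342, adjusted p = 0.0144; rho = 0.736, p = 0.00286), and 0.696 without the same 2 libraries. C5ar1 had r = 0.632 (p = 0.0119, adjusted p = 0.0377; rho = 0.600, p = 0.0200, adjusted p = 0.0692), which rested on those libraries, with 0.402 when they were left out. C1qa, C1qc, C3ar1, Vsig4 and Cfp had r from 0.127 to 0.421 with the macrophage level, none with an adjusted p under 0.05.
The window upstream of Itgam, chr7:128062390-128062639 on the plus strand (RefSeq, GRCm38.p6), is shown beside those of C1qb and C1qc, with the same letters in capitals.
Itgam: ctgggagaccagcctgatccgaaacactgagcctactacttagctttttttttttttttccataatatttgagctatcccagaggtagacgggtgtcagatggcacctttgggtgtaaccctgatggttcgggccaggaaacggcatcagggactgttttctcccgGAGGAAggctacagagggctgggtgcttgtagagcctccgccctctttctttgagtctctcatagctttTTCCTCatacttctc
It held 1 match on each strand, the nearer one 15 bases before the start.

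**Figure D5:**
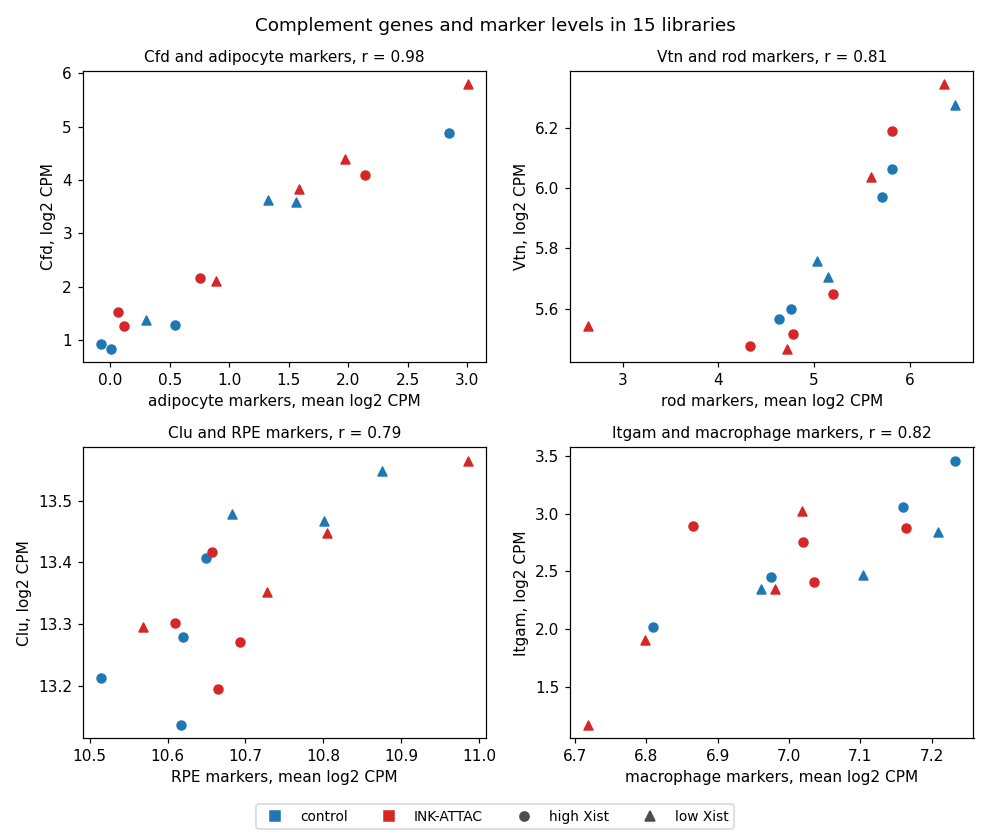
Log2 CPM of 4 complement genes against the mean log2 CPM of a marker list in the 15 libraries (blue, control; red, INK-ATTAC; circles, high Xist; triangles, low Xist), with Pearson's r above each panel. Cfd and the adipocyte level lie along a line in both groups, with control 7 and INK-ATTAC 2 at the upper end. INK-ATTAC 2 stands apart at the low end of the rod axis and is the lowest, close to others, on the macrophage axis.

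Of 5 pairs of members that form 1 complex, 3 passed the threshold. Itgam and its partner subunit Itgb2 had r = 0.832 (p = 0.00011, adjusted p = 0.00133; rho = 0.707, p = 0.00468), with 0.675 without control 7 and INK-ATTAC 2. C1qa and C1qb had r = 0.721 (p = 0.00286, adjusted p = 0.0136; rho = 0.657, p = 0.0100), and C1qa and C1qc r = 0.620 (p = 0.0140, adjusted p = 0.0408; rho = 0.479, p = 0.0732). Without INK-ATTAC 3 and INK-ATTAC 4 these were 0.567 and 0.547. C1qb and C1qc, with r = 0.575 (p = 0.0248, adjusted p = 0.0629; rho = 0.464), and C1ra and C1s1, with r = 0.521 (p = 0.0457, adjusted p = 0.102; rho = 0.479), missed the threshold.

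The fibroblast level went with C1ra (r = 0.738, p = 0.00184, adjusted p = 0.00999; rho = 0.843, p = 0.00022) and with C3 (r = 0.700, p = 0.00399, adjusted p = 0.0152; rho = 0.700, p = 0.00481). Without control 2 and INK-ATTAC 2 these were 0.698 and 0.796, and within high and low Xist 0.670 and 0.681 for C1ra and 0.775 and 0.507 for C3. C1s1, C4b, C7, Serping1 and Colec12 had no adjusted p under 0.05 with this list. The neutrophil level went with Itgb2 by Pearson's r (r = 0.665, p = 0.00709, adjusted p = 0.0245), but not past the threshold by rho (0.564, p = 0.0313, adjusted p = 0.0914). Without control 6 and INK-ATTAC 8 r was 0.565. The neutrophil and macrophage levels correlated with each other at 0.713, so Itgb2 cannot be tied to 1 of these lists from the pairs. None of the 7 pairs of a member with the interferon-stimulated genes had an adjusted p under 0.05, with r from 0.008 for C2 to 0.270 for Cfb.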

How the data were processed

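Per the labels' protocols, RNA from TRIzol lysates went over NucleoSpin columns, and SMARTer reagents served for cDNA amplification. The submitters' processing notes name bcl2fastq, DRAGEN, edgeR, limma and build GRCm38, while their versions, the read counter, its handling of strand and the gene models used are not given in the sources here. The authors deposited raw read counts per gene for each library, not normalized per the file headers, which held 40757 entries, of which 276 repeats were collapsed to leave 40481 genes. They also deposited a comparison table whose columns hold, per the file headers, a log2 CPM value of each library, the log2 fold change with its limits, the p-value and the adjusted p-value.

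From the counts, genes were kept by filterByExpr (17991 genes), scaled by TMM and tested two-sided with edgeR 4.0.16 in R 4.3.3 (quasi-likelihood, all 15 libraries, no covariate, Benjamini-Hochberg over all genes, threshold 0.05). SE is the absolute log2 fold change over the square root of F. Intervals are at 95%. log2 CPM used a prior count of 2, CPM per kb the union of exons in GENCODE M21 (GRCm38). The scripts were tested on simulated data. DESeq2 1.42.0 and limma 3.58.1 were alternatives, as were other filters, covariates, blocks and leaving out libraries. Xist class compares Xist with the mean of Ddx3y, Eif2s3y, Kdm5d and Uty. The lowest chi-square per gene of any pair of libraries within a group was 30.0 (control 6 and 7), so none repeated another. SMARTer reads hold amplified copies, so the limit that 3 counts set for a value of 0 reflects counting error alone.

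The members and lists were chosen with earlier results of these data known. All members are named. The lowest, median and highest library of each group are given for C1qa, C3, C4b, Cfb, Cfd, Cfi, Cr1l, C3ar1, C5ar1, Itgam and the 4 members of lowest p, except that C7 has the count of every library. Of each other list whose group estimates are described, the 2 genes of lowest p are named. Values of other members and lists, and the all-by-all correlations, were added after values had been seen.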

Additional observations from a re-analysis of the deposited data

Results flagged for a closer look

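Colec12, the scavenger receptor collectin, was at 53.96 CPM in INK-ATTAC 2, from a count of 2565, while the other 7 INK-ATTAC libraries lay close together. On the log2 scale it stood at 5.75 against 6.54 in the nearest library, and this gap was 0.726 of the range of the group. It was the single library past the cut-off of Dixon's outlier test among 70 sets of values examined (35 members in 2 groups). Chance alone passes that cut-off in about 1 of 20 sets, so 1 flag among 70 sets is no more than chance can give. The value is therefore a description only. Of all 15 libraries INK-ATTAC 2 also had the lowest rod, macrophage, neutrophil, endothelial, smooth muscle and pericyte, Schwann cell and erythrocyte marker levels and the highest RPE and adipocyte levels, and their part in this value was not tested.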

How the results depend on the processing

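Between groups no member was called in any of the 15 settings tried or when any of the 15 libraries was left out. Over all genes, DESeq2 called 6 and limma-voom with sample quality weights 2, against 0 in edgeR. The count of members at an unadjusted p under 0.05 was 1 in libraries of low Xist alone (C5ar2, 5.01% of all genes), and 0 to 1 when single libraries were left out (3.09% to 6.17% of all genes; C7 without control 1, C5ar2 without INK-ATTAC 7). Between Xist classes that count was 2 among controls alone (5.15% of all genes) and 4 to 8 when single libraries were left out (7.64% to 14% of all genes). C1s1, C5ar2 and Cr1l, 3 of 33 members, kept the direction of their group estimate throughout. Of 488 estimates in other settings 76 turned, and of 495 with a library left out 72. The cause was not tested. Low counts limit C6, Masp1, Masp2 and Hc, and a wide spread between libraries limits C7, Cfd and C4b.

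Under RLE scaling the turned estimate was Cd55 -0.0036 and in DESeq2 Cd55 -0.0038. In limma-voom it was C6 -0.14. With sample quality weights they were C1ra -0.0053, C2 0.0023, C4b -0.10, C6 -0.13 and Cd59a 0.0020. With the lens level as a covariate they were C1qa 0.053, C3ar1 -0.026, C7 -0.70, Cd55 -0.18, Cfb -0.077, Colec12 0.018, Serping1 -0.070 and Susd4 -0.27. With the skeletal muscle level they were C1qa 0.018, C1qc -0.035, C2 0.048, C3ar1 -0.038, C5ar1 0.21, C6 -0.44, Cd55 -0.29, Cfb -0.18, Colec12 0.083, Itgam 0.060, Itgax 0.020, Itgb2 0.12, Masp1 0.42, Serping1 -0.18 and Susd4 -0.056. With the rod level they were C1qc -0.022, C2 0.026, Cd59a 0.0081, Colec12 0.029 and Vtn 0.060. With the macrophage level they were C1qa 0.046, C1qb 0.087, C2 0.026, C5ar1 0.10, C6 -0.13, Cd46 0.0078, Cd55 -0.043, Cfi 0.12, Colec12 0.023, Itgam 0.14, Itgb2 0.11, Masp1 0.40 and Serping1 -0.025. In libraries of high Xist alone they were C1qa 0.12, C1qb 0.077, C3 -0.0099, C3ar1 -0.028, C5ar1 0.041, C6 -0.44, Cd55 -0.34, Cfb -0.25, Cfd -0.43, Clu 0.031, Colec11 0.016, Colec12 0.0015, Itgax 0.067, Serping1 -0.18 and Susd4 -0.47. In libraries of low Xist alone they were C1qbp -0.051, C1qc -0.12, C1ra -0.092, C2 0.10, C4b -0.045 and Cd59a 0.034.

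When single libraries were left out, estimates that turned ranged as follows: C1qa -0.067 to 0.031, C1qb -0.081 to 0.026, C1qc -0.045 to 0.059, C1ra -0.072 to 0.12, C2 -0.066 to 0.021, C4b -0.13 to 0.20, C6 -0.023 to 0.49, Cd46 -0.23 to 0.013, Cd55 -0.10 to 0.12, Cd59a -0.10 to 0.020, Cfb -0.052 to 0.15, Cfi -0.30 to 0.077, Cfp -0.0055 to 0.12, Clu -0.051 to 0.014, Colec12 -0.070 to 0.053, Masp1 -0.30 to 0.091, Serping1 -0.061 to 0.095, Susd4 -0.12 to 0.34, Vsig4 -0.25 to 0.031 and Vtn -0.15 to 0.029. Weak correlations that turned were those of endothelial markers with Cd59a (-0.24 to 0.15, and 0.096 as Spearman's rho), fibroblast with C7 (-0.25 to 0.081) and Serping1 (-0.31 to 0.28), interferon-stimulated genes with C2 (-0.078 to 0.22, and -0.0027 under RLE scaling) and C3 (-0.00095 to 0.39), macrophage with Vsig4 (-0.10 to 0.32) and rod with Clu (-0.41 to 0.10). The count of planned pairs past the threshold ranged from 9 to 18.

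With the number in the titles as a replicate block, 1 member, C5ar2, had an unadjusted edgeR p under 0.05 (log2 fold change -0.50, adjusted p = 0.962), 0 genes were called, and the turned estimates were C1qc -0.050, C1ra -0.027 and Clu 0.0062. With the number in the descriptions as a replicate block they were C1qc -0.0086, C6 -0.0019 and Cd55 -0.039. The labels do not say whether equal numbers pair libraries. Deviations from group means could not decide this, because Xist class also follows the numbers. Same-numbered libraries deviated together at over 0.1 in 4 of 7 pairs by title (-0.101 to 0.292) and in 2 of 7 by description (-0.151 to 0.231). Of the controls 1 and 0, by title and by description, correlated best with their own number.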

Other observations

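Among all 627 pairs of a tested member with a marker or interferon list, a family added after the planned pairs had been seen, 20 had an adjusted p under 0.05 for Pearson's r and 8 for Spearman's rho (permutation tests). C4b, the classical pathway component with the widest spread between libraries, went most closely with the Schwann cell markers, with r = 0.922 (p = 1e-05, the smallest these permutations can give, adjusted p = 0.00314) and rho = 0.900 (p = 3e-05). Without the 2 farthest libraries r was 0.875, and it was 0.960 in libraries of high and 0.880 in those of low Xist. With endothelial markers C4b had r = 0.865 (p = 3e-05; rho = 0.857, p = 7e-05) and with smooth muscle and pericyte markers r = 0.842 (p = 0.00016; rho = 0.786, p = 0.00074). C1ra went with smooth muscle and pericyte markers at r = 0.880 (p = 3e-05; rho = 0.754, p = 0.00162) and with endothelial markers at r = 0.832 (p = 0.00012; rho = 0.729, p = 0.00304).

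These lists themselves varied together. The endothelial level correlated with that of smooth muscle and pericyte markers at 0.759 and with that of Schwann cell markers at 0.786, and the latter 2 with each other at 0.776, so a member cannot be tied to 1 of these lists from the pairs. C7 went with skeletal muscle markers at r = 0.684 (p = 0.00501, adjusted p = 0.0837; rho = 0.695, p = 0.00491) and with lens markers at r = 0.699 (p = 0.00507, adjusted p = 0.0837; rho = 0.724, p = 0.00331), past the threshold in neither case. Within libraries of low Xist these values for C7 were 0.951 and 0.727, and within those of high Xist, where C7 counts were near 0, they were 0.278 and 0.108.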
